A study of Homo sapiens with 6 samples.

Results

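The histone genes of 22RV1 cells moved in opposite directions by type when the cells were treated with bruceantin (BCT): the genes of the histone clusters were mostly higher and the separately placed variant genes mostly lower, in the values as deposited, than in vehicle-treated cells. The set was chosen by gene symbol alone, as every row whose symbol starts with HIST, H2AF, H3F3 or H1F, and held 91 of the 26255 rows of the expression tables. Of these, 73 were HIST rows, the genes of the histone clusters and their pseudogenes, 16 were protein-coding variant genes and 2 were neither, the antisense RNA H1FX-AS1 and the H3F3A pseudogene H3F3AP4. The HIST rows held 6 H1, 18 H2A, 20 H2B, 14 H3 and 15 H4 rows, 3 of which (HIST1H2APS1, HIST2H2BA and HIST2H2BC) were pseudogenes.

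22RV1 is a human cell line of castration-resistant prostate cancer (CRPC), and BCT is a quassinoid, a bitter plant compound. All samples were grown in full medium, and 3 were treated with 10 nM BCT and 3 with its vehicle, DMSO, for 24 h before bulk RNA sequencing. The values were FPKM, fragments divided by transcript length and library size, which compare levels between genes per length but hold no read counts, so the depth behind each value was unknown. The labels do not say that the 3 samples of a group came from separate cultures, and p-values measure the spread between these samples.

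Histones package DNA into nucleosomes, each made of H2A, H2B, H3 and H4, with H1 binding the linker between them. The replication-dependent genes lie in clusters, are expressed in S phase, and make intronless mRNAs that end in a conserved stem-loop instead of a poly(A) tail. The variant genes mostly lie outside these clusters, make polyadenylated mRNAs and supply histones outside replication, and some of them hold introns. The library kit named in the labels selects polyadenylated RNA and does not mark strand. A HIST value in these data is therefore the level of the transcripts such a library retains, and a change in the polyadenylated share of a gene's transcripts cannot be told apart from a change in its total RNA. In bulk samples, fewer cells expressing a gene and less RNA per cell cannot be told apart either.

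The stem-loop was searched for as the letters CTTNTNAG with GG before and CC after, each 2 bases away, within 150 bases after the stop codon on the strand of the gene. It was found in 65 of 65 HIST rows for which GENCODE gives a stop codon, 31 of them tested, in 1 of 13 coding variant rows, and in 0.35% (70 of 19989) of all protein-coding genes. The sequences below are those of the gene with the largest rise in each HIST class, of HIST2H2AC, the HIST gene with the lowest fold change, of HIST3H2A, the HIST gene with the highest DMSO level, and of H2AFX, the variant that holds the element. They were read from the genome (hg19/GRCh37), positions are those of the 16-base element in capitals, and 5 bases are shown on each side.
HIST1H1E, chr6:26157323-26157338, plus strand: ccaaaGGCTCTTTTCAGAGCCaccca
HIST1H2AK, chr6:27805663-27805678, minus strand: aaaaaGGTTCTTTTCAGAGCCaccta
HIST1H2BN, chr6:27806868-27806883, plus strand: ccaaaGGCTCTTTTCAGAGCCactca
HIST1H3E, chr6:26225824-26225839, plus strand: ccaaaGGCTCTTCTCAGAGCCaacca
HIST1H4H, chr6:26285359-26285374, minus strand: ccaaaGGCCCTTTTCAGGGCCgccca
HIST2H2AC, chr1:149858941-149858956, plus strand: ccaaaGGCTCTTTTTAGAGCCaccca
HIST3H2A, chr1:228645070-228645085, minus strand: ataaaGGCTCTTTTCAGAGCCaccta
H2AFX, chr11:118965608-118965623, minus strand: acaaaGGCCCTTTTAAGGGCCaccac

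The form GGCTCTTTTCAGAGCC was shared by 17 of the 31 tested HIST genes with a stop codon, in all classes but H4. All 6 tested H4 genes held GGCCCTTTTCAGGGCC instead. HIST2H2AC, HIST1H3E, HIST1H2AK and HIST1H2AG each had a form of their own among the tested genes, and HIST1H2BC, HIST1H2BD, HIST1H2BJ and HIST1H2BK shared a further one.

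The 22RV1 cells carried the markers of their label, with FOXA1 at 135.0 to 157.1 FPKM and KRT8 at 261.7 to 680.5 FPKM. PTPRC, CD3E, PECAM1 and COL3A1 were at most 0.192 FPKM in each sample. COL1A1 was at 1.23 to 1.55 FPKM under DMSO, against 5.04 to 6.31 FPKM under BCT, and ALB at 387.7 to 415.5 FPKM under DMSO, against 57.2 to 68.9 FPKM under BCT. Their part in the histone results was not tested. Per sample, all FPKM values together came to 1169650 to 1572320 with DMSO and 757534 to 799838 with BCT, of which a single small RNA gene, MIR6087, made up 43.5% to 55.3% and 31.7% to 32.5%. Testing was limited to the 12729 genes whose mean over the samples reached 1 FPKM, and their median log2 fold change was -0.04.

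Among the variants, the H3.3 genes were called in opposite directions, H3F3B higher and H3F3A lower. H3.3 is the replication-independent form of H3, deposited at active genes, and the H3F3A and H3F3B genes encode the same protein with different mRNAs: their coding sequences of 411 bases were identical at 323 positions (78.6%). H3F3B was at 208.9, 196.4 and 210.1 FPKM in the DMSO samples and at 633.0, 777.1 and 712.3 FPKM in the BCT samples. Every BCT sample lay far above every DMSO sample, and the difference was 1.78 ± 0.08 on the log2 scale (SE, n = 3 per group; limma, Benjamini-Hochberg adjusted p = 6.3e-07), or 3.45-fold in mean FPKM.

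H3F3A was at 30.0, 39.5 and 39.6 FPKM under DMSO, against 9.51, 8.44 and 5.55 FPKM under BCT, lower in every BCT sample (log2 fold change -2.22 ± 0.19, limma, adjusted p = 1.1e-05). The H3F3AP4 row was at 998.1, 881.1 and 972.9 FPKM under DMSO, against 438.1, 424.3 and 464.6 FPKM under BCT, also lower in every BCT sample (-1.10 ± 0.06, limma, adjusted p = 1.6e-06). These rows cannot be separated with certainty. The H3F3A coding sequence was identical to the H3F3AP4 transcript at 411 of 411 bases, and the files list H3F3AP4 at the place of H3F3A (chr1:226250408-226259703), whereas GENCODE places it, as H3P6, at chr2:175584636-175585046. With the 2 rows summed before the fit, an alternative chosen after seeing the data, the H3F3A value was -1.13 (limma, adjusted p = 1.2e-06) in place of -2.22.

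The summed H3F3A and H3F3AP4 rows held 987.0 ± 58.1 FPKM under DMSO, against 450.2 ± 18.9 FPKM under BCT (mean ± SD, n = 3 each). Together with H3F3B, the rows of these genes summed to 1117 to 1237 FPKM under DMSO, against 1081 to 1210.0 FPKM under BCT, so that the groups overlapped in the sum as deposited while H3F3B stood at 17.2% ± 0.35 and 61.0% ± 2.91 of it. As a share of all FPKM of a sample, which amounts to scaling to equal sums, these rows did not overlap: they held 0.0787% to 0.0979% under DMSO and 0.135% to 0.158% under BCT, 1.65 times as much in the mean. MIR6087 was part of all FPKM here, and shares without it were not computed. These sums were chosen after the values were seen and are given without a test. H3F3C, a gene related to H3F3B with which it shares a stretch of 100 bases, lay under the filter at 0.065 to 0.142 FPKM under DMSO, against 0.646 to 0.885 FPKM under BCT, and was called higher (2.05) when no filter was used.

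**Figure D1:**
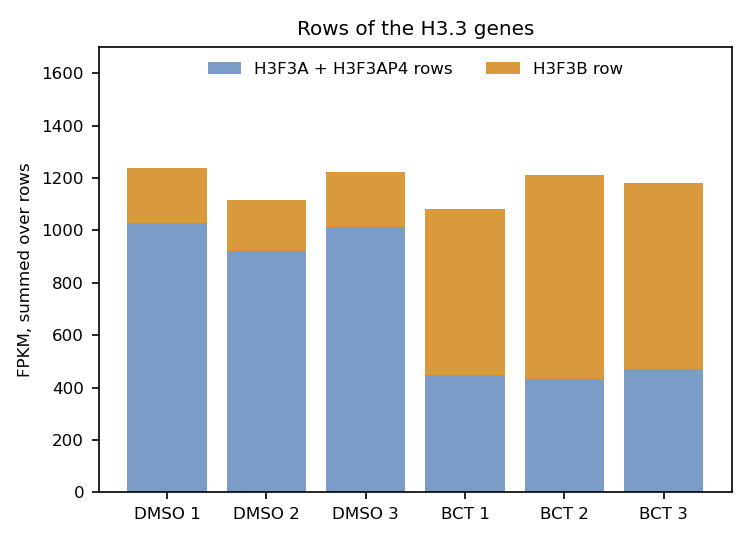
FPKM (y axis, from 0) of the summed H3F3A and H3F3AP4 rows (blue) and of the H3F3B row (orange), stacked, in each of the 3 DMSO and 3 BCT samples. The height of the stack overlaps between the groups as deposited (as a share of all FPKM of the sample it is higher in every BCT sample), while the H3F3B share is 16.9% to 17.6% with DMSO and 58.6% to 64.2% with BCT.

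Of the 5 tested H2A variants, 4 were called lower in BCT-treated cells, against 17.8% of all tested genes. H2AFZ and H2AFV encode the 2 forms of H2A.Z, which sits next to transcription start sites. H2AFZ, the highest variant, was at 1564, 1444 and 1415 FPKM under DMSO, against 660.2, 502.7 and 463.5 FPKM under BCT (log2 fold change -1.46 ± 0.12, limma, adjusted p = 8.5e-06). H2AFV was at 260.4, 236.9 and 259.0 FPKM under DMSO, against 115.9, 103.4 and 98.5 FPKM under BCT (-1.25 ± 0.07, limma, adjusted p = 1.5e-06). In both genes every BCT sample lay below every DMSO sample, and the summed H2A.Z rows held 1726 ± 84.8 and 648.1 ± 113.0 FPKM.

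H2AFX encodes H2A.X, the form phosphorylated at DNA breaks, and is the variant with both a stem-loop and longer transcripts (2 of its 2 GENCODE transcripts reached at least 100 bases past the loop). It was at 319.1, 298.4 and 335.8 FPKM under DMSO, against 135.6, 96.5 and 92.5 FPKM under BCT (-1.57 ± 0.13, limma, adjusted p = 9.9e-06). No BCT sample overlapped a DMSO sample, and H2AFX was thus called lower, as H2AFZ and H2AFV were.

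MacroH2A, an H2A with a large additional domain found on the inactive X chromosome and other silent chromatin, is encoded by H2AFY and H2AFY2. H2AFY2 was called lower, from 11.1 ± 0.81 to 5.73 ± 0.32 FPKM (-0.93 ± 0.07, limma, adjusted p = 7.0e-06). H2AFY went from 233.0 ± 5.17 to 130.5 ± 6.63 FPKM, without overlap, and its log2 fold change of -0.84 ± 0.05 lay just inside the threshold of 0.85 (limma, adjusted p = 2.1e-06), passing it without DMSO replicate 2 (-0.85) or without BCT replicate 1 (-0.88). The remaining H2A variants, H2AFB1, H2AFB2 and H2AFB3 at 0 in all samples and H2AFJ at no more than 0.014 FPKM, lay under the filter.

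The linker variants were not called. H1F0 encodes H1.0, a linker histone known from differentiated and non-dividing cells, and held 312.8 ± 18.2 FPKM under DMSO, against 323.4 ± 16.3 FPKM under BCT, with overlapping groups (0.05 ± 0.06, limma, adjusted p = 0.48). Its value was -0.00037 without DMSO replicate 2, and 0.82 with equal FPKM sums, 0.43 without MIR6087 in the sums and 0.41 with quantile normalization, under the fold threshold in each case (limma, adjusted p from 4.2e-08 to 4.1e-05). H1FX, which encodes H1.10, went from 274.0 ± 20.1 to 177.6 ± 8.41 FPKM without overlap (-0.62 ± 0.07, limma, adjusted p = 3.3e-05), a change under the fold threshold, and its sign turned to 0.14 when samples were scaled to equal FPKM sums. H1FX-AS1, listed at the same place as H1FX, was at 0.818 to 1.09 FPKM under DMSO, against 0.528 to 0.668 FPKM under BCT. As the libraries do not mark strand, reads of this pair cannot be told apart.

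Counted together, 5 of the 9 tested coding variants were called lower, against 17.8% of all tested genes, and 1 was called higher, against 13.9%. Every BCT sample lay below every DMSO sample in 7 of the 9, against 44.3% of all tested genes, and above in 1, against 41.0%. A call required an absolute log2 fold change over 0.85 together with a false discovery rate below 0.05. The median log2 fold change of the variants was -0.93. The other 7 coding variants lay under the filter, 5 of them (H1FNT, H1FOO and the H2AFB genes) at 0 in all samples.

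The count of variants called lower depends on the scaling. With samples scaled to equal FPKM sums it was 1 (H3F3A), the median of all tested genes moved to 0.72, and 5614 genes were called higher and 668 lower in place of 1764 and 2263. With MIR6087 left out of the sums it was 4, the median of all genes was 0.34, and 3370 genes were higher and 1208 lower. Relative to the median of all genes, the variant median was -0.90 in the values as deposited, -0.90 with equal sums and -0.90 without MIR6087.

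**Figure D2:**
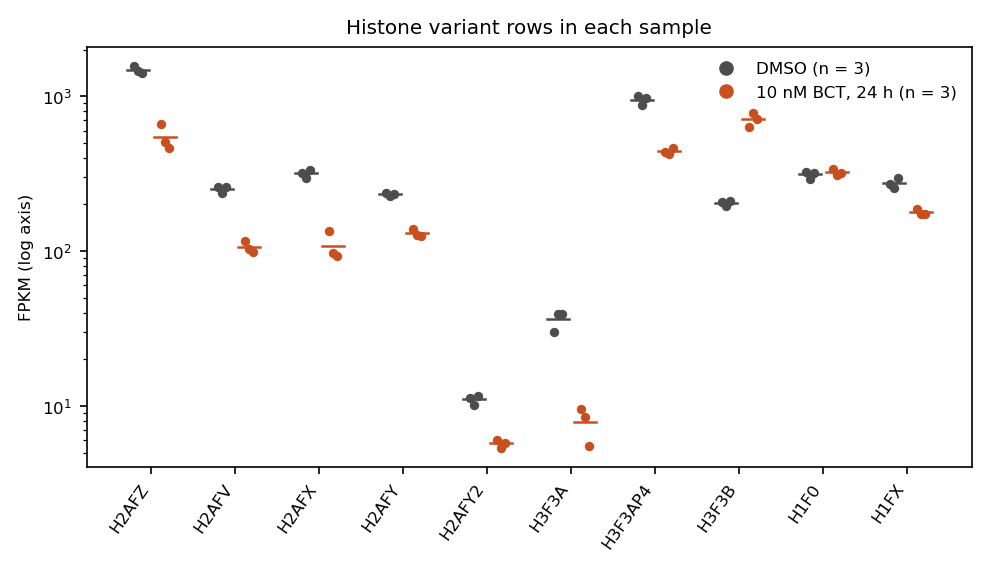
FPKM (y axis, log scale) of the 9 tested coding variants and H3F3AP4 in the 3 DMSO (grey) and 3 BCT samples (orange), where a point is a sample and a line the group mean. The groups overlap in H1F0 alone, H3F3B is the row with higher BCT values, and the other 8 rows have lower BCT values as deposited, of which H1FX changes sign with samples scaled to equal FPKM sums.

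The cluster genes stood at far lower FPKM than the variants. As the library selects polyadenylated RNA, the levels and shares below do not compare the total RNA of the 2 sets. The tested HIST rows ran from 0.54 to 38.2 FPKM in the DMSO mean, with a median of 1.81, whereas the tested variants had a median of 252.0 FPKM. All HIST rows summed to 180.6, 169.5 and 173.8 FPKM under DMSO, against 233.3, 288.2 and 266.4 FPKM under BCT. The sums did not overlap and stood at 1.5 times the DMSO mean, and those of the coding variants (3116 ± 113.0 and 2110 ± 115.0 FPKM) at 0.677 times as deposited. As a share of all FPKM of a sample, the HIST rows stood at 2.56 times and the coding variants at 1.15 times their DMSO means. The direction of the variant sum thus turned, with 0.205% to 0.257% under DMSO and 0.264% to 0.279% under BCT. MIR6087 was part of all FPKM here (43.5% to 55.3% under DMSO, 31.7% to 32.5% under BCT), and shares without it were not computed. With samples scaled to equal sums without MIR6087, the variant median log2 fold change was -0.55, still below 0. The HIST rows made up 4.12% ± 0.06 of all coding, cluster and H3F3AP4 histone FPKM with DMSO and 9.35% ± 1.15 with BCT. These sums, too, carry no test.

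Of the 32 tested HIST rows, 15 were called higher and 0 lower by limma, against 13.9% and 17.8% of all tested genes. At an unadjusted p under 0.05 by limma, 24 rows were higher and 2 lower, HIST1H3D and HIST2H2AC. The adjusted p-values of these 2 by limma were 7.5e-04 and 0.0020, and they missed a call on the fold threshold. The fold change was above 0 in 28 of the 32 HIST rows, against 6134 of all 12729 tested genes. Every BCT sample lay above every DMSO sample in 23 (against 41.0% of all tested genes) and below in 2 (against 44.3%). The median log2 fold change was 0.75 beside -0.04 over all genes, and the medians of the single BCT samples over the DMSO means were 0.70, 1.01 and 0.75. Relative to the median of all genes, the HIST median was 0.79 as deposited and 0.78 with samples scaled to equal FPKM sums, where 26 rows were called higher. With a filter of at least 5 FPKM, 11 HIST rows were tested and 3 called higher.

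Low levels bear on this count. The filter was applied to the mean over all samples, and 7 of the tested HIST rows had a DMSO mean under 1 FPKM and so passed it through their BCT values, 5 of them called higher. Of the other 25, 10 were called higher, with a median of 0.64. A further 41 HIST rows lay under the filter, 9 of them at 0 in all samples, and their highest value in any sample was 1.53 FPKM. Without any filter, 64 HIST rows held a value, 22 were called higher and 1 lower (HIST1H2AJ), with a median of 0.60.

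**Figure D3:**
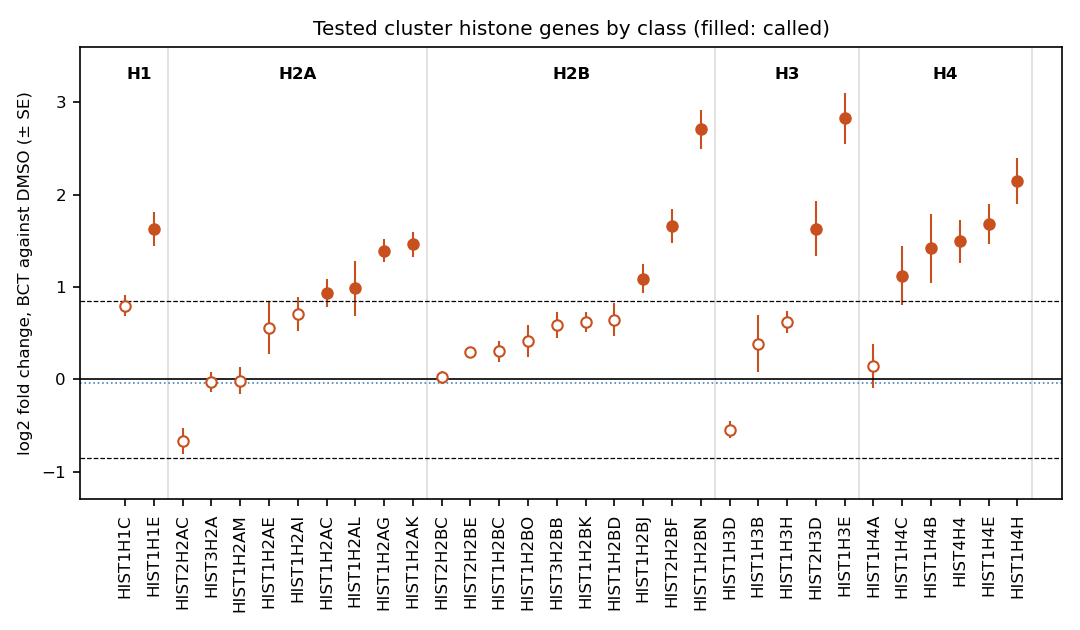
Log2 fold change of BCT against DMSO (y axis, bars are the SE of limma) of the 32 tested HIST rows, ordered within class. Filled points were called higher, dashed lines mark the threshold of 0.85 and the dotted line the median of all tested genes; HIST2H2AC, HIST1H3D, HIST3H2A and HIST1H2AM lie below 0 as deposited and above it with samples scaled to equal FPKM sums.

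The H4 genes encode a protein that pairs with H3 at the centre of the nucleosome. They were called higher in 5 of 6 tested rows, against 13.9% of all tested genes, with a median log2 fold change of 1.46. HIST1H4B, called, and HIST1H4A, not called, passed the filter through their BCT values (DMSO means of 0.67 and 0.995 FPKM). HIST1H4H was at 2.32, 3.21 and 1.47 FPKM under DMSO, against 9.43, 12.6 and 9.01 FPKM under BCT (2.15 ± 0.25, limma, adjusted p = 6.2e-05), and it was also the highest H4 gene. HIST1H4E rose from 1.61 ± 0.43 to 5.37 ± 1.24 FPKM (1.69) and HIST4H4, the lone gene of its cluster on chromosome 12, from 1.1 ± 0.37 to 3.2 ± 0.60 FPKM (1.5), both without overlap. HIST1H4B (1.42, and 0.76 and not called with a pseudocount of 1) did not overlap either, whereas HIST1H4C was at 1.07, 2.30 and 1.36 FPKM under DMSO, against 2.24, 4.79 and 3.59 FPKM under BCT. The HIST1H4C groups overlapped, and its call (1.12 ± 0.32, limma, adjusted p = 0.01) was lost without BCT replicate 2 (0.88, limma, adjusted p = 0.052). HIST1H4A had the lowest fold change of the class (0.15 ± 0.24, limma, adjusted p = 0.58), and its sign turned to -0.10 without BCT replicate 1.

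Among the H3 genes, the largest rise of the whole set stood beside a gene with lower BCT values. HIST1H3E was at 0.712, 0.604 and 0.304 FPKM under DMSO, against 3.26, 4.92 and 4.80 FPKM under BCT, 8.01-fold higher in the mean (log2 fold change 2.83 ± 0.28, limma, adjusted p = 2.1e-05). It passed the filter through its BCT values. HIST2H3D was at 1.72, 0.717 and 1.24 FPKM under DMSO, against 3.15, 5.17 and 3.36 FPKM under BCT (1.63 ± 0.30, limma, adjusted p = 9.0e-04), and 53.5% of its 100-base stretches recur in other genes, HIST2H3A and HIST2H3C among them. HIST1H3H, the highest H3 gene of the clusters, went from 4.64 ± 0.40 to 7.24 ± 1.12 FPKM without overlap, under the fold threshold (0.62).

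HIST1H3D was at 4.72, 3.84 and 4.50 FPKM under DMSO, against 2.81, 3.07 and 2.96 FPKM under BCT, lower in every BCT sample as deposited (-0.54 ± 0.10, limma, adjusted p = 7.5e-04) and at 0.20 with samples scaled to equal FPKM sums. The files list it at the same place as HIST1H2AD (chr6:26197012-26199521), an interval much longer than a histone mRNA. The HIST H3 rows summed to 14.6 ± 1.24 FPKM under DMSO, against 22.7 ± 2.82 FPKM under BCT, while the H4 sums were 9.95 ± 1.78 and 28.8 ± 5.41 FPKM.

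The H2B genes had fold changes above 0 in 10 of 10 tested rows, and 3 were called higher. Over all 12729 tested genes, 6134 had fold changes above 0 and 13.9% were called higher. The proteins of the H2B genes pair with H2A in dimers that flank the H3-H4 centre of the nucleosome core. HIST1H2BN was at 1.31, 0.633 and 0.956 FPKM under DMSO, against 6.31, 6.71 and 6.84 FPKM under BCT, 6.86-fold higher in the mean (2.71 ± 0.21, limma, adjusted p = 5.9e-06), and it too passed the filter through its BCT values. HIST2H2BF rose from 1.98 ± 0.38 to 6.49 ± 1.5 FPKM (1.66) and HIST1H2BJ from 1.85 ± 0.28 to 4.06 ± 0.80 FPKM (1.09, and 0.82 and not called with a pseudocount of 1). HIST1H2BK, the highest H2B gene, was at 27.9, 28.5 and 29.6 FPKM under DMSO, against 36.6, 46.5 and 50.6 FPKM under BCT. Its groups were well apart, but the fold change of 0.62 ± 0.11 lay under the threshold. HIST1H2BK is listed at the same place as HIST1H4I on the other strand (chr6:27106072-27114637), and the libraries do not mark strand. The pseudogene HIST2H2BC was lowest in fold change (0.02, and -0.02 without DMSO replicate 2), at 10.7 ± 0.86 and 10.8 ± 0.30 FPKM.

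Among the 9 tested H2A genes of the clusters, 4 were called higher, against 13.9% of all tested genes. The 4 were HIST1H2AK (1.46), HIST1H2AG (1.39), HIST1H2AL (0.98) and HIST1H2AC (0.94). Of these, HIST1H2AK and HIST1H2AL passed the filter through their BCT values, as their DMSO means were 0.879 and 0.656 FPKM. HIST1H2AG was at 3.55, 3.39 and 2.51 FPKM under DMSO, against 8.02, 8.74 and 8.30 FPKM under BCT (1.39 ± 0.12, limma, adjusted p = 1.2e-05), with a wide gap between the groups. The calls of HIST1H2AL and HIST1H2AC were near the threshold: HIST1H2AL lost its call without DMSO replicate 3 (0.71) or BCT replicate 2 (0.78), and HIST1H2AC without BCT replicate 2 (0.82).

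The most abundant cluster gene of the DMSO samples, HIST3H2A, was at 40.8, 33.1 and 40.7 FPKM under DMSO, against 32.9, 38.8 and 40.5 FPKM under BCT. The groups overlapped (-0.03 ± 0.10, limma, adjusted p = 0.80), and the small fold change was above 0 under each other scaling. HIST2H2AC was at 9.96, 10.5 and 10.2 FPKM under DMSO, against 8.25, 5.56 and 5.70 FPKM under BCT, lower in every BCT sample as deposited (-0.67 ± 0.14, limma, adjusted p = 0.0020) and at 0.09 with samples scaled to equal FPKM sums. A share of 12.7% of its 100-base stretches recurs in the HIST2H2AA genes. HIST3H2A made up the largest part of the class, and the H2A rows summed to 68.1 ± 3.73 and 79.4 ± 6.89 FPKM, the smallest change of a class sum (1.17 times).

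The H1 genes of the clusters had 2 tested rows. HIST1H1E was at 1.24, 1.12 and 0.753 FPKM under DMSO, against 3.12, 3.88 and 3.11 FPKM under BCT, and was called higher (1.63 ± 0.19, limma, adjusted p = 5.3e-05). HIST1H1C, the highest H1 gene of the clusters, was at 15.8, 13.2 and 14.6 FPKM under DMSO, against 24.1, 30.0 and 22.4 FPKM under BCT. It did not overlap, and its fold change of 0.80 ± 0.11 (limma, adjusted p = 1.9e-04) lay just inside the threshold, passing it without DMSO replicate 1 (0.86) or BCT replicate 3 (0.88).

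**Figure D4:**
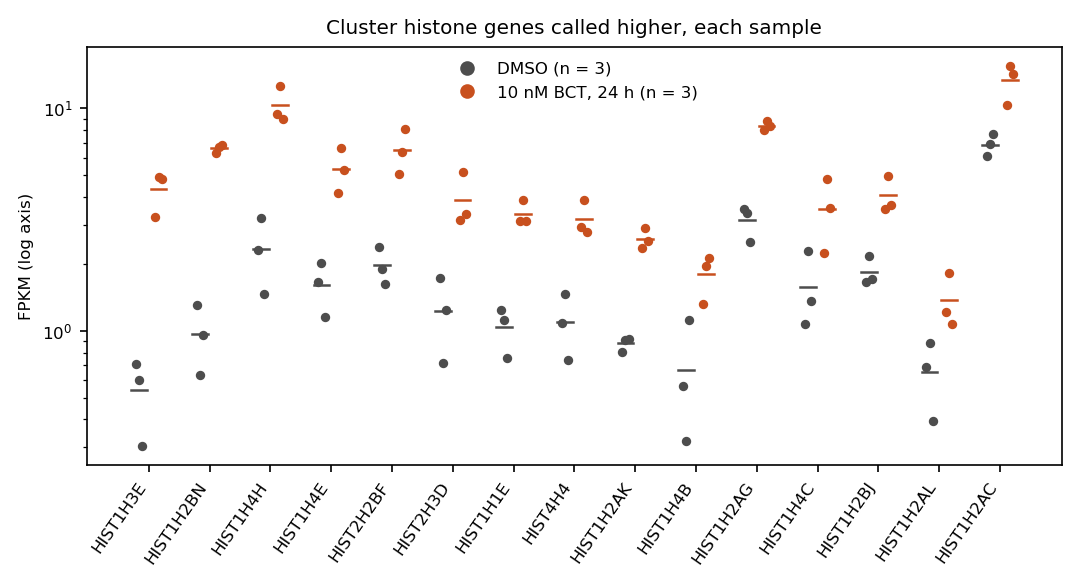
FPKM (y axis, log scale) of the 15 HIST genes called higher in the 3 DMSO (grey) and 3 BCT samples (orange), ordered by fold change, where a point is a sample and a line the group mean. The groups overlap in HIST1H4C alone, and most genes lie between 0.3 and 10 FPKM.

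**Figure D5:**
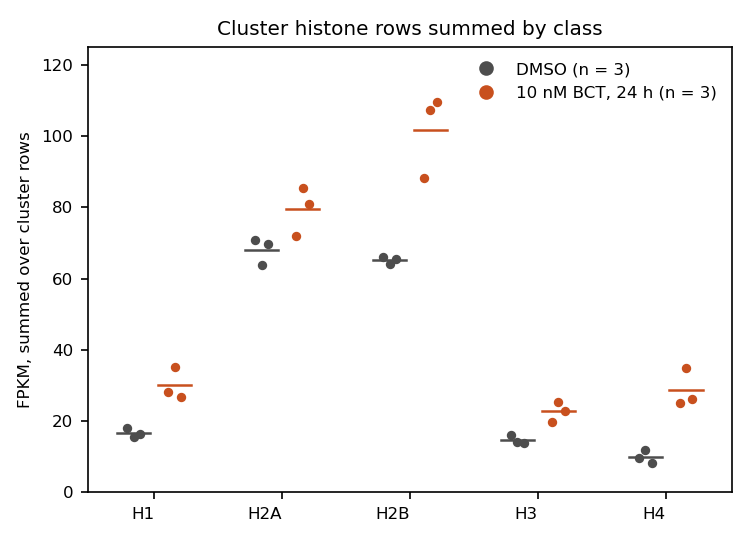
FPKM summed over all HIST rows of a class (y axis, from 0) in each DMSO (grey) and BCT sample (orange), with a line at the group mean. The sums do not overlap in any class, and the H4 sum stands at 2.89 times and the H2A sum at 1.17 times its DMSO mean.

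By cluster, 12 of 24 tested rows of HIST1 on chromosome 6, 2 of 5 of HIST2 and 0 of 2 of HIST3 on chromosome 1, and the lone HIST4 gene were called higher by limma, with medians of 0.87, 0.29, 0.28 and 1.5. In HIST3, 1 row (HIST3H2BB, 0.59) was higher at an unadjusted p under 0.05. It also passed the false discovery rate (limma, adjusted p = 0.0044) and lay under the fold threshold. The HIST1 rows spanned chr6:25726291-27861669 and enclosed 30 rows of other genes. Of the 14 of these that were tested, 6 were called higher and 2 lower, against 13.9% and 17.8% of all tested genes, with a median of 0.40. The filter bears on these counts. All 7 HIST rows that passed it through their BCT values lay in HIST1, and 5 of them were among the 12 called higher. Of the other genes of the span, GUSBP2, called higher, also passed it through its BCT values (DMSO mean of 0.678 FPKM). BTN3A2 and BTN3A1 passed it through their DMSO values (BCT means of 0.757 and 0.813 FPKM). BTN2A1, a butyrophilin, rose by 1.46 on the log2 scale and ZNF391 by 1.42, whereas BTN3A2 fell by 2.50 and BTN3A1 by 1.12.

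H2A and H2B genes often lie head to head and share the promoter between them. Of 13 such pairs with starts no more than 500 bases apart, both genes were tested in 6. HIST1H2AK and HIST1H2BN (1.46 and 2.71) and HIST1H2AG and HIST1H2BJ (1.39 and 1.09) were called higher in both genes, but both genes of the first pair passed the filter through their BCT values. In the others, 1 gene or none was called: HIST1H2AC and HIST1H2BC had 0.94 and 0.30, HIST1H2AM and HIST1H2BO -0.01 and 0.42, HIST3H2A and HIST3H2BB -0.03 and 0.59, and HIST2H2AC and HIST2H2BE -0.67 and 0.29. The members of a pair could differ in sign, although the negative values of HIST1H2AM, HIST3H2A and HIST2H2AC turned positive with samples scaled to equal FPKM sums.

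Promoters were taken from RefSeq (GRCh38.p14), with 250 bases before and 50 after each start, for 61 replication-dependent and 14 variant genes. TATAAA, searched on both strands, was in 65.6% of the former, 28.6% of the latter and 12.0% of all 27305 promoters, and CCAAT in 85.2%, 78.6% and 35.7%. Among the promoters of tested genes, TATAAA was in 18 of 28 replication-dependent and 4 of 8 variant promoters. CCAAT was in 25 of 28 and 5 of 8 of these. The gap between the sets was thus smaller for TATAAA and larger for CCAAT when only tested genes were counted. The promoters below are those of the H3.3 genes, which moved in opposite directions, and of HIST1H2AG, whose window also covers the start of HIST1H2BJ. Capitals mark both motifs on either strand, so that ATTGG and TTTATA are their reverse forms and TTTATAAA holds the first motif on both strands.
H3F3B, chr17:75779730-75780029, minus strand: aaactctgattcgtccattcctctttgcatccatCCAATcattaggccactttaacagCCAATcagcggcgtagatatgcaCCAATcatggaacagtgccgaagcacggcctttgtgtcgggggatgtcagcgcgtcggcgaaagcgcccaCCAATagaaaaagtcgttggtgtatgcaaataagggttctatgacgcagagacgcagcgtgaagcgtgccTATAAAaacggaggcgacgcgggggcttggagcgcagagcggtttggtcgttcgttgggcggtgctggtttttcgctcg
H3F3A, chr1:226061581-226061880, plus strand: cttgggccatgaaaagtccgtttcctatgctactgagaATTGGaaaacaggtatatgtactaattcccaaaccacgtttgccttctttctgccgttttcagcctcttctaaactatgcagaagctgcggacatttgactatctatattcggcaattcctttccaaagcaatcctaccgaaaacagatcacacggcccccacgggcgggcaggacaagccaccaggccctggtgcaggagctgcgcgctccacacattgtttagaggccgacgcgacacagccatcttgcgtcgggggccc
HIST1H2AG, chr6:27132793-27133092, plus strand: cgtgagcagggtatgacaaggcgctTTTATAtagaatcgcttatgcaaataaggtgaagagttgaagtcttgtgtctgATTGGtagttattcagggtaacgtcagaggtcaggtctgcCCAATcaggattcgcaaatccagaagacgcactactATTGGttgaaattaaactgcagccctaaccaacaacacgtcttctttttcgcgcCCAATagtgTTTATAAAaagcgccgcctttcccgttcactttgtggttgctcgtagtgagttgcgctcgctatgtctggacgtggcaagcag

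The H3F3B and HIST1H2AG windows held both motifs, and the H3F3A window held CCAAT alone. A match is a description of these letters and not of a bound factor.

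GENCODE lists transcripts that run at least 100 bases past the stem-loop for 13 of the 31 tested HIST genes with a stop codon. Of these 13, 7 were called higher, the median was 0.94, and every BCT sample lay above every DMSO sample in 12. Of the 18 without, 8 were called higher, the median was 0.75, and BCT lay above in 11. Over all tested genes, 13.9% were called higher and BCT lay above in 41.0%. Among those called, HIST1H3E and HIST1H2BN of the 13 passed the filter through their BCT values. So did HIST1H2AK, HIST1H2AL and HIST1H4B of the 18. HIST1H2BK is among the 18 by GENCODE, although its listed interval (chr6:27106072-27114637) is much longer than a histone mRNA. Of the genes with the largest rise in each class, HIST1H3E, HIST1H2BN and HIST1H4H were among the 13 and HIST1H1E and HIST1H2AK among the 18, and HIST3H2A, whose groups overlapped, was among the 13 too. Whether the reads came from such transcripts was not tested, as the files hold 1 value per gene.

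Shared sequence limits single genes. A stretch of 100 bases recurred in another gene of the set for 7 of the 32 tested HIST rows, 3 of them called higher, and for the 25 without, 12 were called higher with a median of 0.80. Counting any other gene of GENCODE, it recurred for 11 rows, 3 of them called higher, with a median of 0.59. The filter bears on these counts too. Among those called, HIST1H2BN of the 7 and of the 11 passed it through its BCT values. So did HIST1H2AK, HIST1H2AL, HIST1H3E and HIST1H4B of the 25. Of all tested genes, 13.9% were called higher. Genes outside the set held 96.0% of the stretches of HIST1H3D, all of those of HIST2H2BC, 22.5% of those of HIST1H2BK and 22.4% of those of HIST3H2BB. The tested HIST rows were also shorter and richer in GC than other genes, with medians of 489.5 bases and 58.2% GC beside 3208 bases and 48.2% over all tested genes and 1917 bases and 51.1% for the variants. After a correction for GC content and length, 21 HIST rows were called higher and 4 variants lower, and the medians were 1.04 and -0.79.

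Genes that act on histone genes, mRNAs and proteins were taken from 3 lists written from general knowledge. The list values are as deposited, and those under other scalings are not given. With samples scaled to equal FPKM sums, the median of all tested genes moved from -0.04 to 0.72, which bears on each count of lower genes. NPAT, which activates histone genes at the histone locus body when phosphorylated by cyclin E and CDK2, was at 4.54 ± 0.27 FPKM under DMSO, against 3.26 ± 0.13 FPKM under BCT (-0.47, under the threshold), and CASP8AP2, another component of that body, had -0.19. Of the 12 tested genes of this list, 4 were called lower (CCNE1 -2.06, CDK2 -2.01, CCNE2 -1.66 and POU2F1 -1.15) and 1 higher (GON4L, 0.88, named after its value was seen), against 17.8% lower and 13.9% higher of all tested genes, with a list median of -0.08.

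SLBP, the protein that binds the stem-loop through processing, export and translation, was called lower as deposited. It went from 112.5 ± 6.45 to 47.1 ± 2.52 FPKM (-1.25 ± 0.06, limma, adjusted p = 9.5e-07). In its list of 24 genes of histone mRNA processing and decay, 4 were called lower and 2 higher, near or under the 17.8% and 13.9% of all tested genes, with a median of -0.0023. DCP2, a decapping enzyme, had -1.07 and SNRPD3 and SNRPB, Sm proteins of the U7 particle, both had -0.91, whereas SYMPK, the scaffold of the cleavage complex, had 1.01 and the exonuclease XRN1 0.93, the latter both called higher.

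Of the 24 histone chaperones, 12 were called lower and 1 higher as deposited, against 17.8% and 13.9% of all tested genes. Their median was -0.84, also as deposited. ASF1B (-2.29), which hands over new H3-H4, CHAF1B (-1.90) and RBBP4 (-1.45), subunits of the replication-coupled assembly factor CAF-1, and the H2A-H2B carrier NAP1L1 (-1.72) fell most among those called. ATRX, a remodeller that acts with DAXX in placing H3.3, was the 1 called higher (1.03). CENPA, the H3 variant of centromeres, whose symbol lies outside the rule, went from 17.8 ± 1.0 to 14.3 ± 1.08 FPKM without overlap (-0.31, under the threshold).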

How the data were processed

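RNA-seq was done on 3 vehicle and 3 BCT samples of 22RV1 cells (10 nM, 24 h), grouped by their labels. The authors trimmed reads with Trimmomatic 0.38, used HISAT2 for alignment to hg19 and StringTie for assembly, and deposited FPKM values per gene. The submitters' processing notes also name CASAVA and HTSeq with no role. The gene annotation and the gene-level test are not given in the sources used here. FPKM holds no counts, so depth is unknown, no counting interval was computed and no count test was run. The lowest HIST value above 0 was 0.041 to 0.119 FPKM per sample.

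The deposited FPKM values were transformed to log2(FPKM + 0.1), a scale that makes changes of low genes look smaller. The 12729 genes that reached a mean of 1 FPKM were fitted with limma 3.58.1 (R 4.3.3, eBayes with a trend, no covariates) and adjusted together by Benjamini-Hochberg.

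The members and lists were chosen with earlier results of these data known. Genes named with values were each tested variant, in each HIST class the largest rise, the lowest fold change and the highest level, each called member, NPAT, SLBP, CASP8AP2 and CENPA, and at most 4 called genes per other list. HIST genes below 0, the members of gene pairs, the genes with shared sequence, those named under the filter, GON4L, SNRPD3, SNRPB, ATRX and GUSBP2 fall outside this rule and were named after their values were seen. Positions are 1-based on hg19. Sequences came from that genome with GENCODE, and promoters from RefSeq.

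The replicate numbers shared by both groups come from the labels alone. Alternatives covered the pseudocount, the filter, 4 scalings, the false discovery rate, the variance model, the replicate block, a correction by loess (span 0.5) for GC content and transcript length over 12151 genes (95.5%), and each sample left out.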

Additional observations from a re-analysis of the deposited data

How the results depend on the processing

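With samples scaled to equal FPKM sums, 6282 genes were called in place of 4027, 26 HIST rows were higher, 1 variant was lower, and the medians were 1.5 (HIST) and -0.18 (variants). HIST1H2AM (0.72), HIST1H3D (0.20), HIST2H2AC (0.091), HIST3H2A (0.74) and H1FX (0.14) turned positive. Without MIR6087 in the sums the medians were 1.13 and -0.55, and HIST1H2AM and HIST3H2A were both at 0.36. Quantile normalization gave a variant median of -0.86, with HIST1H2AM at 0.036 and HIST3H2A at 0.021, and median ratio scaling gave 0.021 and 0.0077 for these genes. H3F3AP4 was no longer called with equal sums (-0.33), without MIR6087 (-0.72) or with quantile normalization (-0.54).

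The medians of HIST and variant rows were 0.58 and -0.84 with a pseudocount of 1 (11 HIST rows higher and 4 variants lower, with HIST1H2AL, HIST1H2BJ, HIST1H4B, HIST1H4C and H2AFY2 no longer called), 0.60 and -0.84 without a filter, and 1.04 and -0.79 after GC and length correction, with HIST1H2AM at 0.29 and HIST3H2A at 0.39. A false discovery rate below 0.01 left 13 HIST rows and 5 variants. With at least 5 FPKM, 3 of 11 HIST rows were called and the median was 0.62. The cause of these shifts was not tested, apart from the fewer or more genes a filter leaves.

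Leaving out each sample in turn gave 12 to 16 HIST rows called higher, 5 to 6 variants called lower, medians of 0.68 to 0.85 and -0.99 to -0.89, and 3834 to 4420 genes called. Genes that changed sign ranged from -0.152 to 0.083 (HIST1H2AM), -0.129 to 0.06 (HIST3H2A), -0.022 to 0.086 (HIST2H2BC), -0.00037 to 0.0802 (H1F0) and -0.098 to 0.273 (HIST1H4A).

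Deviations of same-numbered samples from their group means correlated at 0.116, 0.033 and 0.034, and those of differently numbered samples at -0.115 to 0.074. Deviations within a group of 3 sum to 0, so these values cannot decide whether same-numbered samples were paired, which remains unknown. With the replicate block, 15 HIST rows were higher and 5 variants lower, the medians were 0.75 and -0.93, 4033 genes were called, and all 42 histone rows kept their call. With the block and the GC and length correction together, the medians were 1.04 and -0.79, with HIST1H2AM at 0.29 and HIST3H2A at 0.39.

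Over 42 rows and 818 values under alternatives, 737 kept direction and call, 21 lost and 35 gained the call, and 25 changed sign. The unknown depth limits the rows near 1 FPKM most.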

Other observations

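Some histone rows under the filter of 1 FPKM also had groups that did not overlap, and some of them were called by limma when no filter was used. HIST2H2BA, a pseudogene, was at 0.374, 0.169 and 0.256 FPKM under DMSO, against 1.13, 1.45 and 1.06 FPKM under BCT. HIST1H1D and HIST1H1T were at 0 in every DMSO sample and at 0.119 to 0.148 and 0.041 to 0.13 FPKM with BCT. In the other direction, HIST1H2AJ was at 0.872, 0.986 and 0.882 FPKM under DMSO, against 0.364, 0.51 and 0.428 FPKM under BCT, and HIST1H3C at 1.53, 0.916 and 0.921 against 0.845, 0.789 and 0.556 FPKM. Without the filter the log2 fold changes were 1.87 for HIST2H2BA and -0.93 for HIST1H2AJ, and HIST1H3C was not called. HIST1H1D and HIST1H1T were also called, but are listed at 0 under DMSO, so their fold change is set by the pseudocount and is not given. These rows were chosen after their values were seen.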
